A study of Gallus gallus with 4 samples.

Results

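The chick trunk contained a small set of endoderm cells that carried SOX17, and these 230 cells, of 25379 cells with at least 2500 unique molecular identifiers (UMIs), are described here. They made up 0.906% of the cells. A cell was taken when it had at least 1 SOX17 UMI and at least 1 UMI of FOXA1, CDH1 or SHH, with fewer than 10 CHRD UMIs, no WNT6 UMI and no more than 1 LMO2 UMI. The last 3 limits kept out notochord, surface ectoderm and blood or endothelial cells. The cells were thus chosen by the measured counts of these 7 genes, whose values are given as a description only.

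The cells came from untreated chick embryos at 4 closely spaced stages, named by their number of somite pairs (4S, 7S, 10S and 13S). At least 4 embryos were pooled per stage, the trunk tissue behind the third pair of somites was taken and dissociated, and each stage gave 1 droplet-based 3′ single-cell RNA-seq library. The libraries held between 24490943 and 64453991 UMIs, and the members held 1650811. With 1 library per stage the stages could not be compared by a test, and embryo and stage cannot be told apart.

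Definitive endoderm is the germ layer that lines the gut tube and gives rise to the lung, thyroid, liver, pancreas and intestine. SOX17 and the FOXA, GATA and EOMES transcription factors act early in its formation in vertebrates. Later, region factors divide the tube from front to back, among them HHEX and NKX2-1 at the front, MNX1 and ISL1 in the dorsal pancreas region and CDX2 in the hindgut and intestine. In the trunk the endoderm sheet lies below the notochord, which also carries FOXA2 and SHH, while the surface ectoderm on the other side of the embryo is the other CDH1 epithelium.

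The label was set against genes that the choice did not use. FOXA2 and GUCA2B are among the largest rises of these same data, so the values are a description and not an independent check. At least 3 of 6 genes (EPCAM, CLDN3, KRT7, KRT18, FOXA2 and GUCA2B) had a UMI in 227 of the 230 cells (98.7%), against 12.8% of all other cells. EPCAM and CLDN3 were not called between members and surface ectoderm in the main comparison, so this count does not by itself tell endoderm from other epithelia. Counts were then thinned to 2500 UMIs per cell, because depth changes the chance of seeing a gene. KRT7 was then seen in 90.0% of the members, in 16.4% of all other cells and in 2.62% of 3660 presomitic cells with at least 3 MSGN1 UMIs, a class that should lack it. FOXA2 was seen in 32.6%, 1.94% and 0.164% of the same classes, CLDN3 in 48.3%, 4.83% and 0.683%, and GUCA2B in 55.2%, 1.15% and 0.492%. The median depth before thinning was 6575.5 UMIs in the members, 6661 in all other cells and 7662.5 in the MSGN1 cells. All of these genes lay well above the level in MSGN1 cells, where free RNA in the droplets is one source of such UMIs.

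The choice also left similar cells outside. FOXA1 had a UMI in 191 members (83.0%), SHH in 85 (37.0%) and CDH1 in 40 (17.4%), and 117 members met the rule by FOXA1 alone. SOX17 itself was sparse, with 1 UMI in 75 members, at least 2 in 155 and a highest value of 28. Members with 1 SOX17 UMI had 2053 CPM of KRT7 and 1403 CPM of GUCA2B, against 1436 and 537 CPM in members with at least 2. The 75 cells with 1 UMI came as 8, 16, 34 and 17 from 4S, 7S, 10S and 13S and the 155 others as 76, 32, 40 and 7, so stage make-up moved with this split and its part was not tested. Just outside the rule, 134 cells without a SOX17 UMI but with FOXA1 and either CDH1 or SHH had 1117 CPM of KRT7, 1114 CPM of GUCA2B and 222 CPM of FOXA2. A further 165 cells with SOX17 but none of FOXA1, CDH1 or SHH had 474 CPM of KRT7 and 76.6 CPM of FOXA2. Of the cells that met the rest of the rule, 12 had too many CHRD UMIs and carried 600 CPM of NOTO, a notochord gene, and 3 had too many LMO2 UMIs and carried 246 CPM of CDH5, an endothelial cadherin. CPM are the UMIs of a gene scaled to the same total for every sum of cells. The members are therefore a part of a larger set of cells with endoderm genes, namely cells with both SOX17 and FOXA1, CDH1 or SHH detected. Some of that set stands among the other cells in the comparisons. Among markers of other lineages CDH5 and KRT14 had no UMI in the members, TFAP2A had 1 and NOTO had 3, while GATA3 and ISL1, of the surface ectoderm and cardiac lists, were higher than in all other cells.

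The share of members was 2.09% of 4025 cells at 4S (84 cells, 95% Clopper-Pearson interval 1.67 to 2.58), 0.812% of 5909 cells at 7S (48 cells, 0.600 to 1.08), 0.854% of 8669 cells at 10S (74 cells, 0.671 to 1.07) and 0.354% of 6776 cells at 13S (24 cells, 0.227 to 0.527). The interval of the 4S library lay above the other 3, the intervals of 7S and 10S overlapped, and that of 13S lay below them all. SOX17 in the members was 765, 566, 294 and 175 CPM at 4S, 7S, 10S and 13S, and 10.7, 3.01, 2.02 and 1.35 CPM in all other cells. The level of the choosing gene and the share were thus both highest at 4S and lowest at 13S. From 7S to 10S the level fell from 566 to 294 CPM while the share did not fall. The part of that level in the share was not tested. With the rule applied to thinned counts the shares were 0.894%, 0.525%, 0.300% and 0.103%. The intervals cover counting error only, and dissection can also set the share.

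**Figure D1:**
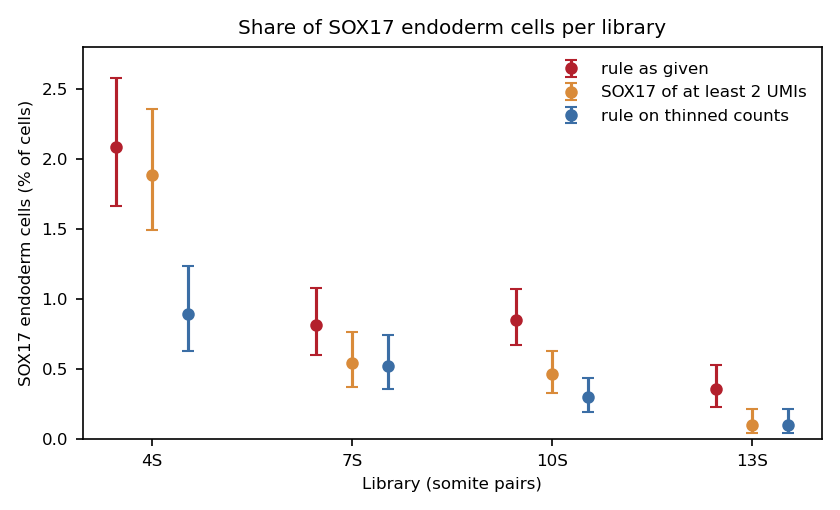
Share of SOX17 endoderm cells per library in percent of cells with at least 2500 UMIs, for the rule as given (red), with at least 2 SOX17 UMIs (orange) and with the rule on thinned counts (blue). Points are shares and bars are 95% Clopper-Pearson intervals. Under the rule as given the 4S library stood highest at 2.09% and the 13S library lowest at 0.354%.

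The first question was which genes set these cells apart from the rest of the trunk. UMIs were summed per library over the members and over all other cells, and these 8 totals went into the quasi-likelihood test of edgeR with library as a block. The 4 libraries are different stages. The test pools much of its estimate of spread over genes. A p-value or SE therefore does not by itself measure how far a single gene varied across stages. Of 11984 genes tested, 834 (6.96%) were higher and 1082 (9.03%) lower in the members at an adjusted p under 0.05, with a median log2 fold change of −0.13 over all genes tested. Of the genes that reached 50 CPM in either group and moved the same way in 4 of 4 libraries, TSPAN8 and GUCA2B rose most, and POSTN and ALDH1A2 fell most.

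TSPAN8, a tetraspanin of epithelial cell membranes, had 136, 213, 113 and 59.8 CPM in members at 4S, 7S, 10S and 13S, against 1.53, 2.31, 2.0 and 1.13 CPM in all other cells. This was the largest rise, with a log2 fold change of 6.03 ± 0.31 (SE, edgeR adjusted p = 1.01e-82). GUCA2B, which encodes uroguanylin, a peptide hormone of the intestine, had 142, 1169, 1251 and 1469 CPM in members and 8.07, 6.80, 17.7 and 17.3 CPM in all other cells (log2 fold change 5.97 ± 0.11). In members the 4S library was far below the other 3, yet still above every library of the other cells. SCIN, an actin-severing protein, had 149, 260, 156 and 101 CPM in members and 2.67, 3.38, 3.30 and 2.58 CPM in all other cells (5.61 ± 0.24). For all 3 genes the groups did not overlap, which was largely set by naming the largest rises that held in 4 of 4 libraries.

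Carriers of lipid and retinol were among the named rises. RBP4A, named as a retinol-binding protein of plasma, had 241, 190, 44.8 and 46.0 CPM in members against 22.4, 0.824, 5.32 and 3.26 CPM in all other cells (4.10 ± 0.23). APOA1, the main protein of high-density lipoprotein, had 1101, 306, 304 and 110 CPM in members against 63.1, 13.2, 25.2 and 20.8 CPM (3.68 ± 0.12, edgeR adjusted p = 4e-196). LGALS2, a galectin, was even across the libraries at 166, 153, 203 and 170 CPM in members, against 7.09, 4.08, 8.20 and 8.15 CPM in all other cells (4.54 ± 0.20). The other named genes with a rise were HEP21 (5.36, listed by RefSeq as another name of SLURP1), CTXN2 (4.58), the secreted phospholipase PLA2G2A (4.38), PDZK1IP1 (4.34), FILIP1 (4.15) and TTC36 (3.66), together with ENSGALG00000006944 (4.38) and ENSGALG00000011349 (4.14), which the files do not name. PLA2G2A was uneven between cells, with 67.2% of its UMIs in 10 members and 63 of 128 in a single cell. In RBP4A, HEP21 and APOA1 the share in 10 members was 56.6%, 47.0% and 42.2%, against 25.7% in GUCA2B and 22.4% in FOXA2.

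Under the same limits, the largest falls were the following. POSTN, a matrix protein, had 0, 4.64, 5.85 and 0 CPM in members and 65.6, 225, 102 and 82.8 CPM in all other cells (−5.50 ± 0.33). ALDH1A2, the main retinoic acid synthesising enzyme of the trunk mesoderm, had 4.26, 4.64, 5.85 and 0 CPM in members and 265, 116, 80.0 and 57.7 CPM in all other cells (−5.31 ± 0.29), and MEOX1, a somite transcription factor, fell by 5.07 on the log2 scale. The remaining named falls were LBX2 (−4.98), AGRP (−4.88), the activin antagonist FST (−4.87), NPY (−4.68), the chemokine CXCL14 (−4.52), C5H11ORF96 (−4.42) and CLEC19A (−4.41). AGRP rested on the 4S library, where all other cells had 198 CPM, and without that library it lost its call (edgeR adjusted p = 0.474).

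**Figure D2:**
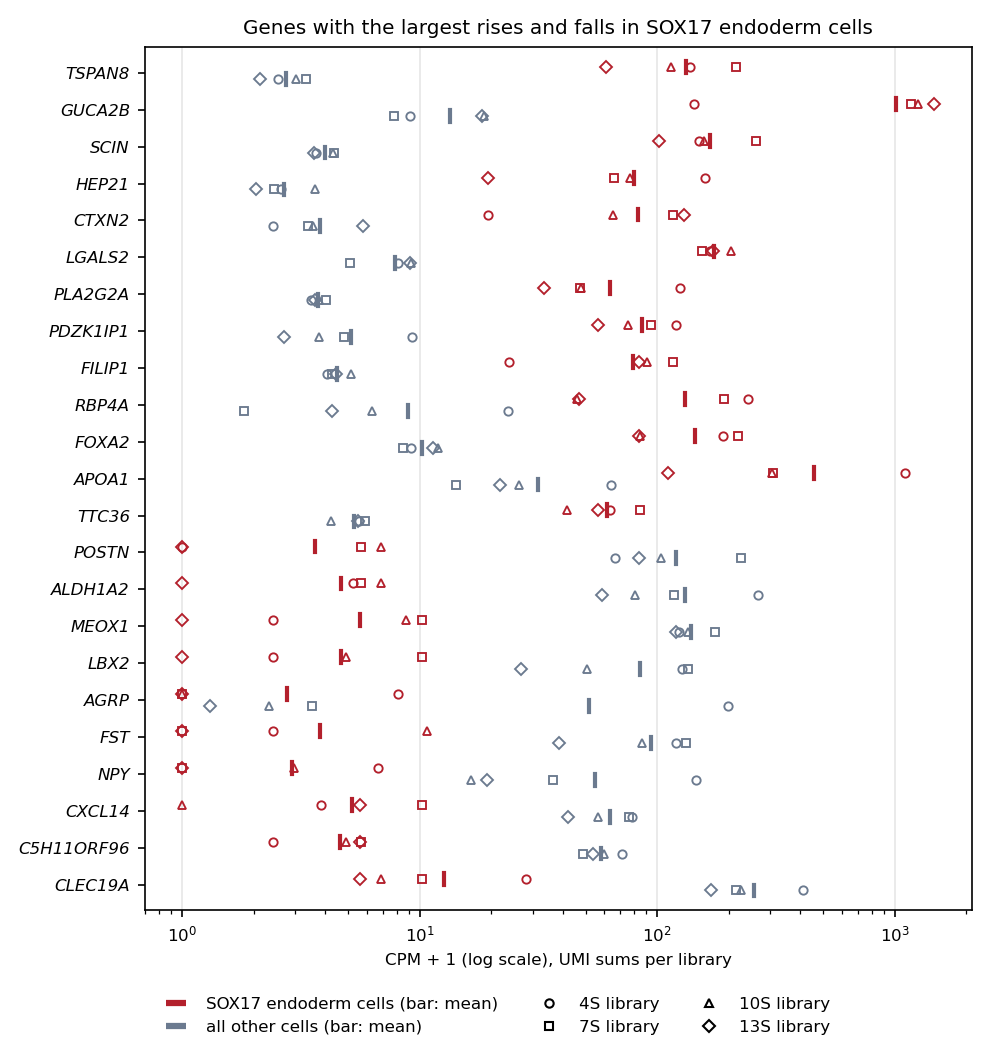
CPM plus 1 on a log axis for the genes with the largest rises and falls in SOX17 endoderm cells (red) against all other cells (grey), 1 symbol per library and a bar for the mean. Genes with a name in the files are drawn; all but AGRP, whose groups overlap, show 2 separate sets of 4 symbols, and GUCA2B in the members shows the low 4S library at 142 CPM beside 1169, 1251 and 1469 CPM.

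Among transcription factors of early endoderm, 5 of 11 tested were higher in members and 1 was lower, with a median log2 fold change of 0.86. FOXA2, a pioneer factor of endoderm and notochord, had 189, 218, 83.8 and 82.9 CPM in members against 8.24, 7.54, 11.0 and 10.4 CPM in all other cells (3.78 ± 0.21). EOMES, a T-box factor that acts at the start of endoderm formation in mouse, had 35.5, 41.8, 31.2 and 13.8 CPM in members against 2.86, 1.48, 1.05 and 1.02 CPM (4.14 ± 0.40). The zinc finger factors GATA5 and GATA6 rose by 1.88 ± 0.11 and 2.66 ± 0.40, and both were above all other cells in every library. GATA4, their relative, showed −0.21 ± 0.38 and was not called (edgeR adjusted p = 0.803). TCF7L2, which relays Wnt signals, was higher by 0.42 and HHEX, a factor of the anterior endoderm and liver, was lower at −0.89. Both of these calls rested on single libraries: without the 4S library the edgeR adjusted p was 0.411 for TCF7L2 and 0.136 for HHEX.

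Of the factors that divide the gut and pancreas, 9 of 17 tested were higher and 2 lower, with a median of 0.77. MNX1, a homeobox factor of the dorsal pancreas region, notochord and motor neurons, had 56.7, 246, 228 and 212 CPM in members against 5.24, 23.4, 24.4 and 21.8 CPM in all other cells (3.19 ± 0.16, edgeR adjusted p = 5.84e-83). ISL1, of the pancreas mesenchyme, islets and heart, rose by 2.28 ± 0.37. CDX2, the intestinal caudal factor, had 224, 566, 310 and 322 CPM in members and 179, 231, 166 and 140 CPM in all other cells, a smaller rise of 0.77 ± 0.11 that held in every library. Its relative CDX4 was lower at −0.40, with 2 libraries in each direction, and lost the call without 4S (edgeR adjusted p = 0.148). HOXB1 fell by 2.34 on the log2 scale.

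The remaining calls in that list stood on few molecules. NKX6-2, a homeobox factor of pancreas and neural tube, had 38 UMIs in members (2.13 ± 0.39), none of them at 13S. NKX2-1, a lung and thyroid factor, had 20 UMIs in members (4.30 ± 0.59), and without the 4S library its edgeR adjusted p was 0.0862. NKX6-1, PAX9 and NKX2-2, factors of pancreas, pharynx and islets, had 4, 7 and 6 UMIs, and without the 4S library their edgeR adjusted p values were 0.239, 0.684 and 0.438.

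Epithelial genes rose, with 15 of 27 tested higher, 5 lower and a median of 1.23. KRT7 had 1071, 2362, 1974 and 1832 CPM in members and 72.3, 136, 204 and 263 CPM in all other cells (3.39 ± 0.09). KRT18, its partner in simple epithelia, had 1158, 1225, 2062 and 2399 CPM in members and 156, 118, 283 and 361 CPM (2.82 ± 0.09). The tight junction protein CLDN3 had 289, 297, 308 and 276 CPM in members and 25, 22.7, 27.7 and 27.5 CPM (3.39 ± 0.13), the most even of these genes. EPCAM, an adhesion protein of epithelia, rose by 1.79 ± 0.10, the junction protein CGN by 2.47, the desmosome protein DSP by 2.33, the gap junction protein GJB1 by 2.14 and OCLN by 1.66. The 5 lower genes were the mesenchymal and neural cadherin CDH2 (−1.06), the gap junction protein GJA1 (−1.60), CLDN1 (−0.49) and the skin keratins KRT14 and KRT17. KRT14 had no UMI in the members, and 3 counts over the group would make it at least 5.32-fold lower. CLDN1 lost its call without the 4S library (edgeR adjusted p = 0.0641).

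Of the lipid, retinol and plasma carrier genes, 9 of 18 tested were higher and 4 lower, with a median of 2.14. Besides APOA1 and RBP4A, the apolipoproteins APOH (3.36 ± 0.20) and APOC3 (2.24 ± 0.22) rose in every library. The fatty acid carrier FABP5 was lower at −1.30 and STRA6, the membrane receptor for retinol-binding protein, at −2.25. TTR, the thyroid hormone carrier of plasma, and the fibrinogen chain FGB were less even. FGB had 162, 9.28, 74.1 and 0 CPM in members and 5.24, 2.68, 7.16 and 4.59 CPM in all other cells (3.48 ± 0.31). TTR had 140, 9.28, 394 and 4.60 CPM in members and 30.0, 1.40, 28.5 and 15.5 CPM in all other cells, so the 13S members were below the other cells, and the fitted difference was 2.63 ± 0.18.

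A few cells carried most of TTR. Its 304 UMIs lay in 30 members, and 12 members with at least 3 TTR UMIs, a group chosen after its values were seen, held 93.8% of them. Of these 12 cells 5 were from 4S and 7 from 10S, and there were 0 in 7S and 13S. They had 1254 CPM of FGB against 35.0 CPM in the other 218 members, 2178 against 541 CPM of APOA1 and 304 against 140 CPM of RBP4A. MNX1 had no UMI in any of the 12 cells, against 82 of the other 218 members with at least 1. HOXB9 was 0 against 98 CPM, HOXA7 50.7 against 525 CPM and MSX1 114 against 534 CPM. TTR, FGB and APOA1 are known together from liver and yolk sac. Without the 12 cells 771 genes were called higher and 1072 lower over the whole table. TTR itself was then at −1.0 on the log2 scale. That value was set by the choice, since cells with TTR were taken out of the members only. How many embryos they came from cannot be told, since the embryos of a stage were pooled.

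Among signals and their antagonists 11 of 50 tested were higher and 24 lower, with a median of −0.99, or −0.93 with genes at 0 set to their bound. CXCR4, a chemokine receptor of migrating endoderm in fish, had 343, 190, 134 and 46.0 CPM in members and 46.1, 58.3, 58.7 and 40.9 CPM in all other cells (1.71 ± 0.14), so the 2 groups came close at 13S. CYP26A1, which breaks down retinoic acid, rose by 1.53 ± 0.21 in 3 of 4 libraries and the receptor RARB by 1.43 ± 0.22 in all 4, beside the fall of ALDH1A2. DKK3, a secreted Dickkopf family member, rose by 1.47 ± 0.13. The BMP ligand BMP5 (2.11) and the BMP antagonist NOG (1.65) were called higher but lost the call without the 4S library (edgeR adjusted p = 0.623 for BMP5 and 0.147 for NOG). The ID genes, early targets of BMP signalling, did not move together: ID2 was higher at 0.61 ± 0.09, ID3 higher at 1.10 ± 0.11 and ID1 lower at −0.62 ± 0.09. FGF8 (−2.97), WNT5A (−1.09) and NOTCH1 (−2.70), signals of the tail bud and mesoderm, were lower.

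Of 13 hedgehog pathway genes tested none was higher, and only GLI2, a transcription factor of the responding cells, was lower at −1.62. Over all genes tested 6.96% were higher and 9.03% lower, so these counts do not set the list apart. Of 27 basement membrane and matrix genes 8 were higher and 4 lower, with a median of 0.08. FN1, fibronectin, had 942, 585, 460 and 253 CPM in members and 321, 285, 215 and 184 CPM in all other cells (0.99 ± 0.10), FBLN1 rose by 1.91 ± 0.13 and the basement membrane linker NID1 by 2.84 ± 0.40. The hyaluronan link protein HAPLN1 (−3.16) and the collagen COL1A1 (−2.18) were lower. Of 12 mesenchymal genes 9 were lower and none higher, with TWIST1 at −3.95 and MSX1 at −0.36.

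HOX genes, which are arranged along the chromosome in the order in which they are used from head to tail, split by paralogue group. Of 30 tested, 5 were higher and 11 lower in members, with a median of −0.29, or −0.07 with genes at 0 set to their bound. In groups 1 to 4, 8 of 11 were lower and 0 higher. HOXB1 had 46.8, 32.5, 37.0 and 36.8 CPM in members against 226, 220, 156 and 134 CPM in all other cells, HOXB2 was at −3.40 ± 0.40 and HOXB4 at −1.89 ± 0.24. In groups 5 to 8, 1 of 10 was higher and 3 lower. In groups 9 to 13, 4 of 9 were higher and 0 lower.

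HOXB9 had 22.7, 78.9, 125 and 262 CPM in members against 2.40, 21.1, 74.0 and 178 CPM in all other cells (0.97 ± 0.16, edgeR adjusted p = 8.99e-08). HOXA13, the most posterior HOXA gene, had 17.0, 32.5, 19.5 and 41.4 CPM against 2.18, 1.94, 3.97 and 6.61 CPM (2.76 ± 0.40). Both were higher in all 4 libraries, but HOXA13 stood on 38 UMIs in 24 members, with 63.2% of them in 10 members. HOXA10 and HOXA11 had 14 and 4 UMIs in members, and without the 10S library their edgeR adjusted p values were 0.263 and 0.0605. HOXC6, of group 6, was at 1.46 and without the 7S library at an edgeR adjusted p of 0.0535. HOXA7 (0.18) and HOXA9 (0.19) were not called over all 4 libraries, although without the 10S library HOXA7 was called higher at 0.40 (edgeR adjusted p = 0.0204).

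**Figure D3:**
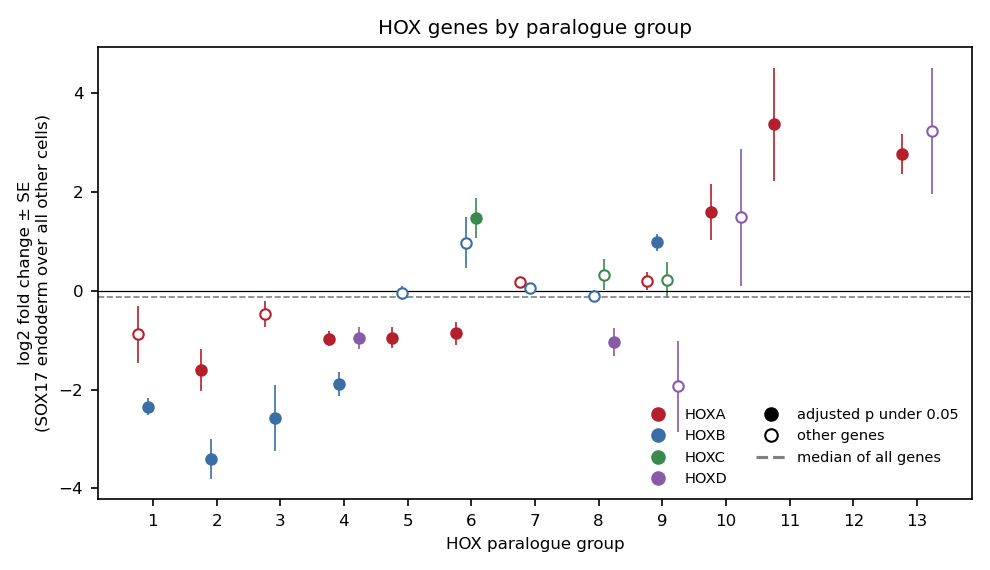
Log2 fold change of each tested HOX gene with UMIs in the members, SOX17 endoderm cells over all other cells, by paralogue group; bars are SE, filled points passed the test and the dashed line is the median of all genes tested. Filled points of groups 1 to 4 all lie below 0 and those of groups 9 to 13 all lie above it.

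Markers of other lineages were mostly lower in the members. The summed level of 7 paraxial mesoderm markers ranged from 32.2 to 78.0 CPM in members and from 623 to 771 CPM in all other cells, and 6 of 7 were lower, with TBX6 at −5.61 and MSGN1 at −3.85. Blood and endothelial markers summed to 13.8 to 51.0 CPM in members and 93.7 to 244 CPM in all other cells, with 5 of 7 tested lower. CDH5, the defining endothelial cadherin, had no UMI, which makes it at least 6.14-fold lower at 3 counts over the group. Notochord markers summed to 51.1 to 161 CPM in members and 233 to 498 CPM, with 4 of 5 tested lower (NOTO at −4.29). Of 7 tested markers each, 4 lateral plate, 4 neural and 4 surface ectoderm markers were lower, and NKX6-2 of the neural list was higher. The rule itself kept cells out by LMO2, CHRD and WNT6. The falls of blood and endothelial, notochord and surface ectoderm markers were thus partly set by the choice and are no check of it.

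The surface ectoderm list also held a gene that rose. Its summed level of 23.2 to 110 CPM in members overlapped the 66.5 to 84.5 CPM of all other cells, and GATA3, which some endoderm also carries, was higher at 3.14 ± 0.48 on 26 UMIs while TFAP2A, KRT14, KRT17 and TP63 were lower. Cardiac mesoderm markers summed to 17.5 to 39.7 CPM in members and 6.18 to 11.7 CPM in all other cells, higher in all 4 libraries. This sum rested mostly on ISL1, which is also in the gut and pancreas list and had 45 UMIs in members. ISL1 was the 1 of 3 tested that was called higher. NKX2-5 and TNNT2 were not called, and TBX20 and TBX5 had no UMI in members. Of 3 intermediate mesoderm markers 2 were lower. Of 18 S phase and 18 G2/M genes 2 and 7 were lower and none higher, with CDK1 at −0.32, a call that was lost without the 10S library (edgeR adjusted p = 0.0609). Over all genes tested 6.96% were higher and 9.03% lower. The list medians were −0.11 and −0.31, against −0.13 over all genes tested. The S phase count thus does not set that list apart. Of 13 dissociation stress genes 4 were higher and 1 lower, with summed levels of 4145 to 5971 CPM in members and 4052 to 5016 CPM in all other cells. The part of dissociation stress in these differences was not tested.

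The notochord is the other axial tissue with FOXA2 and SHH. Members were compared with 892 notochord cells, taken by at least 10 CHRD UMIs, of which 208, 168, 326 and 190 came from 4S, 7S, 10S and 13S. Of 6487 genes tested, 845 (13%) were higher and 1014 (15.6%) lower in the endoderm cells by edgeR. FOXA2 did not separate them: it had 189, 218, 83.8 and 82.9 CPM in endoderm and 138, 131, 133 and 229 CPM in notochord, with a difference of −0.24 ± 0.21 (edgeR adjusted p = 0.45). Endoderm was above notochord at 4S and 7S and below it at 10S and 13S, and without the 4S library the difference was −0.57 (edgeR adjusted p = 0.0176). MNX1 had 56.7, 246, 228 and 212 CPM in endoderm and 87.5, 255, 230 and 358 CPM in notochord (−0.44, edgeR adjusted p = 0.0187), a small difference that lost its call without 13S (edgeR adjusted p = 0.143).

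Keratins and gut genes gave the largest rises over notochord. KRT7 had 1071, 2362, 1974 and 1832 CPM in endoderm against 4.75, 18.7, 9.89 and 28.7 CPM in notochord (6.84 ± 0.18), and KRT18 was higher by 6.31 ± 0.16. TSPAN8 had no UMI in notochord, which makes it at least 217-fold higher in endoderm at 3 counts over the group. GUCA2B had 7 UMIs in all notochord cells (9.19 ± 0.23), and GATA5 had 21 (6.07 ± 0.20). CDX2 was higher by 2.01 ± 0.16 and EPCAM by 1.64 ± 0.14, each in all 4 libraries. The other named rises were LGALS2 (7.46), RBP4A (7.24), TTR (6.22), SCIN (5.83), FILIP1 (5.82), PLA2G2A (5.75), HEP21 (5.37) and the galectin LGALS3 (5.36).

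CHRD divided the groups, so the falls of notochord markers were partly set by the choice. Among the largest falls against notochord were the following genes. SST, the peptide somatostatin, had no UMI in endoderm and 135, 190, 766 and 179 CPM in notochord, at least 209-fold lower at 3 counts over the group. LEFTY1, a Nodal antagonist, and GNOT2 also had no UMI in endoderm and were at least 47.3-fold and 32.7-fold lower. GLRX and GRIA3 had none either. NOTO, the notochord homeobox gene, had 2.84, 0, 1.95 and 0 CPM in endoderm against 952, 749, 613 and 508 CPM in notochord (−8.70 ± 0.25). POSTN (−9.59), POMC (−8.53) and SOX9 (−3.59), a factor of cartilage and axial tissue, were lower as well.

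Of the lists, 3 of 6 endoderm factors were higher than in notochord and 1 lower, 14 of 20 epithelial genes were higher and 2 lower, and 6 of 11 carriers were higher and 4 lower. HOX genes were 9 of 17 higher and 3 lower, with HOXA7 at 2.03 ± 0.22, HOXA9 at 4.07 ± 0.38 and HOXB9 at 1.44 ± 0.20. The medians were 2.15 for endoderm factors, 1.69 for epithelial genes, 1.59 for carriers and 1.21 for HOX genes, against −0.0082 over all genes tested. Of 22 matrix genes 6 were higher, FN1 by 2.69, and 12 lower. The signals were 10 higher and 10 lower of 32, and the BMP targets ID1 (1.72), ID2 (2.09) and, in the mesenchymal list, MSX1 (2.61) were all higher in endoderm. Of 18 S phase genes 12 were higher and none lower, with MCM5 at 0.68, and of 16 G2/M genes 3 were higher. Among 7 hedgehog pathway genes 4 were lower and none higher.

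The surface ectoderm is the other CDH1 epithelium. It was taken as 462 cells with WNT6 and CDH1 and without SOX17, with 52, 95, 154 and 161 cells at 4S, 7S, 10S and 13S. Of 5949 genes tested, 384 (6.45%) were higher and 364 (6.12%) lower in endoderm by edgeR. The general epithelial genes did not separate the 2 sheets clearly. EPCAM had 431, 654, 528 and 401 CPM in endoderm and 556, 586, 561 and 477 CPM in surface ectoderm (−0.21, edgeR adjusted p = 0.204). CLDN3 showed 0.33 (edgeR adjusted p = 0.0668) and was called without 4S (0.46, edgeR adjusted p = 0.0155). CDX2 had 224, 566, 310 and 322 CPM in endoderm and 328, 402, 276 and 170 CPM in surface ectoderm (0.15, edgeR adjusted p = 0.631), so its ranges overlapped. A p that misses the threshold does not show that the sheets were alike for these genes.

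Endoderm factors and gut genes did separate them. FOXA2 had 189, 218, 83.8 and 82.9 CPM in endoderm against 1.73, 0, 4.66 and 3.35 CPM in surface ectoderm (5.10 ± 0.34), and MNX1 had 56.7, 246, 228 and 212 CPM against 0, 6.49, 1.55 and 2.68 CPM (6.19 ± 0.29). HEP21 had no UMI in surface ectoderm and was at least 130-fold higher in endoderm at 3 counts over the group. GUCA2B (8.45), TSPAN8 (7.87), RBP4A (7.66), APOA1 (7.22), APOH (5.77), GATA5 (4.91) and the myosin light chain MYL4 (4.22) were higher in every library. KRT7 (1.23 ± 0.10) and KRT18 (1.14 ± 0.10) were higher too.

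WNT6 divided the groups, so the falls of surface ectoderm markers were partly set by the choice. Among the largest falls against surface ectoderm were the following genes. KRT14 had no UMI in endoderm against 107, 93.0, 113 and 119 CPM in surface ectoderm, at least 61.5-fold lower at 3 counts over the group. TFAP2A, a factor of ectoderm, was at −7.89 ± 0.38, the fatty acid carrier FABP3 at −6.24, the chemokines CXCL12 and CXCL14 at −5.83 and −5.63, UPK1B at −5.76, KRT17 at −5.60 and the epidermal factor GRHL3 at −4.48. ZNF385C (−5.22), ASTL (−4.95) and NOXO1 (−4.71) were the remaining named falls. Of 23 epithelial genes 8 were higher and 8 lower, of 5 endoderm factors 4 were higher and none lower, and of 12 carriers 7 were higher and 3 lower. Their medians were 0.14, 4.91 and 3.45, against −0.0036 over all genes tested. CDH2 was higher by 2.92, the BMP antagonist NOG by 3.31, and the ligand BMP4 was lower at −1.49. Of 18 HOX genes HOXB7 (1.22) and HOXB9 (1.79) were higher and HOXA5 (−1.0) and HOXB1 (−1.84) lower.

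The members were not uniform. MNX1 had a UMI in 82 of them and none in 148. The share was 22.6% at 4S (19 of 84 cells), 41.7% at 7S (20 of 48), 41.9% at 10S (31 of 74) and 50% at 13S (12 of 24), and on thinned counts 4.76%, 33.3%, 32.4% and 12.5%. MNX1-positive cells were deeper in every library, with medians of 9964, 4798, 6845 and 10459 UMIs, against 7249, 3835.5, 6648 and 8163 UMIs in MNX1-negative cells. Depth thus moved with the split, and its part in the result was tested only by setting MNX1 status on thinned counts. That gave 18 genes higher and 41 lower, of which 13 and 26 were also called with status on all counts. Of 2858 genes tested between sums of the 2 kinds of cell, 29 (1.01%) were higher and 53 (1.85%) lower in MNX1-positive cells by edgeR. Left out were MNX1 and the genes of the rule. The count depended on the libraries: without 10S it was 8 higher and 31 lower, and without 4S 16 and 27.

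Several genes that BMP is known to induce were lower in MNX1-positive cells, although these genes are not a list of their own and no set was tested. MSX1, a homeobox gene that BMP induces, had 87.9, 58.6, 158 and 324 CPM in MNX1-positive cells and 669, 1025, 751 and 841 CPM in MNX1-negative cells (−2.45 ± 0.24, edgeR adjusted p = 7.6e-07). ID1 had 346, 137, 145 and 264 CPM in MNX1-positive cells and 737, 1590, 668 and 1222 CPM in MNX1-negative cells (−2.11, edgeR adjusted p = 2.33e-06). ID2 had 207, 567, 234 and 366 CPM in MNX1-positive cells and 1157, 1846, 1369 and 1483 CPM in MNX1-negative cells (−2.24). The groups did not overlap for any of the 3, and how often this occurs among all genes tested was not counted. ID3 (−1.31) and MSX2 (−2.98) were also lower, as were SMAD6 (−1.73), an inhibitor that BMP induces, and ID4 (−1.39), which were chosen after their values were seen. ID4 lost its call without the 10S library (edgeR adjusted p = 0.0876). BAMBI, another BMP-induced gene, was at −1.29 and was not called (edgeR adjusted p = 0.0928).

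SMOC1, a secreted BMP antagonist, went the other way. It had 253, 195, 290 and 145 CPM in MNX1-positive cells and 62.6, 8.83, 18 and 0 CPM in MNX1-negative cells, the largest rise of the comparison (2.79 ± 0.31, edgeR adjusted p = 3.68e-06). OLFML3, a secreted olfactomedin-like protein, was higher by 1.99 ± 0.35, the glucose transporter SLC2A1 by 1.83 and DHRS3, an enzyme that lowers retinoic acid, by 1.90 in 3 of 4 libraries. CYP26A1 had 98.3, 137, 115 and 34.1 CPM in MNX1-positive cells and 43.0, 61.8, 28.7 and 0 CPM in MNX1-negative cells (1.46), a call lost without 4S (edgeR adjusted p = 0.0597) or 10S (edgeR adjusted p = 0.201). CCDC47 (1.76), SPINK5 (1.74), HEP21 (1.70), GNPTAB (1.58) and ENSGALG00000031398 (1.81) completed the named rises, of which GNPTAB and ENSGALG00000031398 lost the call without 10S (edgeR adjusted p = 0.107 for GNPTAB and 0.0535 for ENSGALG00000031398).

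The keratins KRT7 and KRT18 and 4 of 9 tested carriers (APOA1, TTR, RBP4A and FGB) were lower in MNX1-positive cells. Of the rest the keratin KRT24 was at 0.17 and not called (edgeR adjusted p = 0.762), and the carrier APOH was higher at 1.17. KRT7 had 538, 1828, 1414 and 1244 CPM in MNX1-positive cells and 1273, 2844, 2446 and 2524 CPM in MNX1-negative cells (−0.95 ± 0.11), and KRT18 was at −1.20 ± 0.12 and GUCA2B at −1.01 ± 0.20. In each library the MNX1-positive value was the lower one. EPCAM was higher instead, at 0.67 ± 0.15, but not without the 10S library (edgeR adjusted p = 0.197). TTR (−5.95), PLA2G2A (−3.98), ANO3 (−3.37), LSP1P1 (−3.37) and RBP4A (−2.65) were among the largest falls. Of the 128 PLA2G2A UMIs in the members 63 lay in a single cell. The 12 TTR cells are all MNX1-negative, and without them 28 genes were higher and 46 lower and APOA1, at −1.02 with them, was at −0.76 and no longer called (edgeR adjusted p = 0.117). They held 93.8% of the TTR UMIs of the members and had 1254 CPM of FGB against 35.0 CPM in the other members. The falls of TTR and FGB thus rest largely on these few cells.

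FOXA2 (−0.16, edgeR adjusted p = 0.869) and CDX2 (0.21, edgeR adjusted p = 0.713) were not called between MNX1-positive and MNX1-negative cells, nor was any of 9 HOX genes or of 16 S phase and 15 G2/M genes tested. Of 16 epithelial genes 1 was higher and 3 lower, of 9 carriers 1 higher and 4 lower, and of 15 signals 2 higher and 4 lower. EOMES, at 67.2, 68.4, 55.4 and 17.0 CPM in MNX1-positive cells and 23.5, 17.7, 10.8 and 10.0 CPM in MNX1-negative cells, was higher in each of the 4 libraries but was not called (1.69, edgeR adjusted p = 0.0576). It had 53 UMIs in 38 members, of which 2 were from 13S, so some of these values rest on very few molecules.

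**Figure D4:**
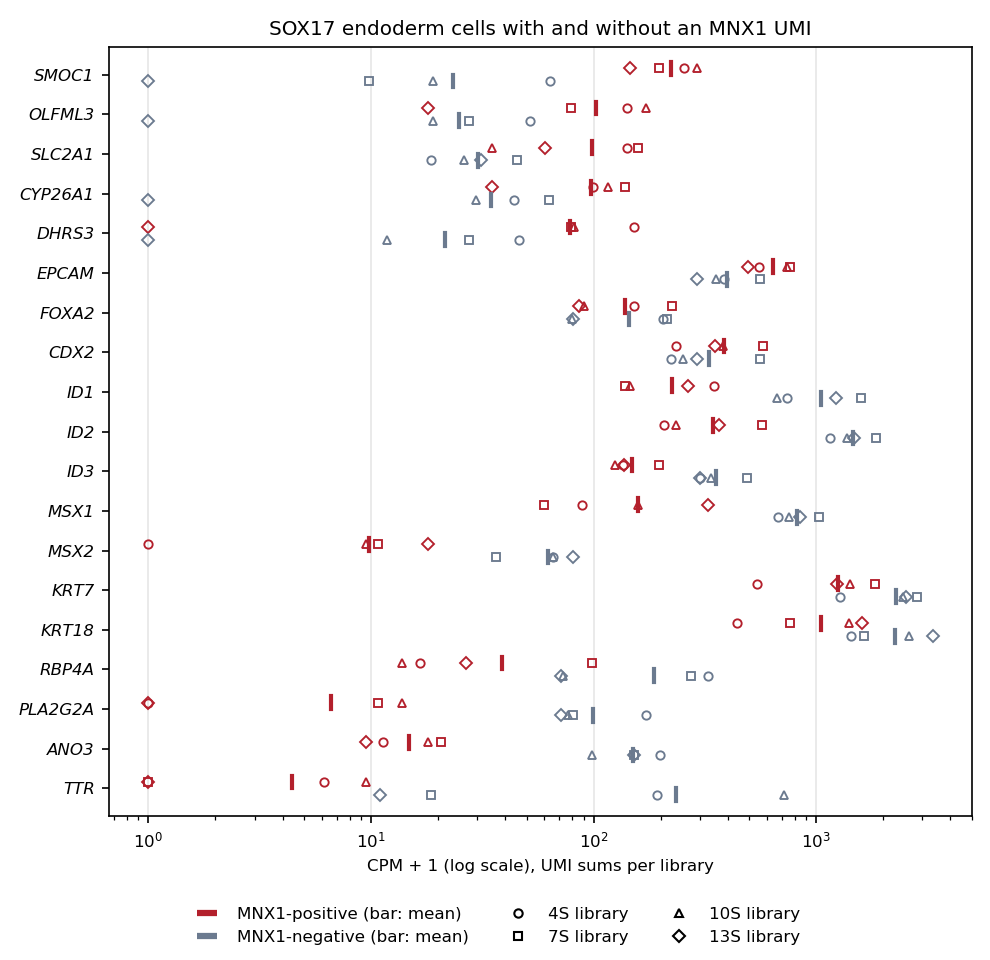
CPM plus 1 on a log axis in MNX1-positive (red) and MNX1-negative (grey) SOX17 endoderm cells for genes named in this comparison, 1 symbol per library and a bar for the mean. SMOC1 shows the positive cells at 145 to 290 CPM, all above the negative cells, while ID1, ID2 and MSX1 show the positive cells lower without overlap, and FOXA2 and CDX2 overlap.

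CDX2 gave a second division of the cells. It had a UMI in 183 members and none in 47, with 60, 43, 59 and 21 positive cells and 24, 5, 15 and 3 negative cells at 4S, 7S, 10S and 13S. Of 3405 genes tested, 1 (0.0294%) was higher and 1 (0.0294%) lower in CDX2-positive cells by edgeR. An unadjusted edgeR p under 0.05 was seen for 141, fewer than chance alone would give at that threshold. That count is not read as a sign of further differences. HOXA7 was the higher gene, with 196, 533, 650 and 1501 CPM in CDX2-positive cells and 5.57, 121, 286 and 837 CPM in CDX2-negative cells (1.70 ± 0.25, edgeR adjusted p = 5.97e-08). It was above the negative cells of its own library in all 4. It was not called without 4S (edgeR adjusted p = 0.153) or with no replicate block. With CDX2 status set on thinned counts 3 genes were called higher, and HOXA7 was not among them. CDX2-positive cells were deeper in every library, with medians of 7823, 4237, 6888 and 9504 UMIs, against 7181, 2945, 5221 and 7000 UMIs in CDX2-negative cells. Depth thus moved with this split too. HEP21 was the lower gene at −2.29, with 2 libraries in each direction. Without the 10S library 8 genes were higher and 2 lower. The negative sums of 7S and 13S rest on 5 and 3 cells, and the counts of calls in the 2 splits cannot be compared.

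Across the stages, 98 of 1338 genes that were higher at 13S than at 4S rose at each step within the members, 35 of them by at least 2-fold, and 133 of 1445 that were lower fell at each step, 21 of them by at least 2-fold, counting genes that reached 50 CPM in the higher of these libraries and 10 UMIs in the lower. With 1 library per stage this is a description. A random order of all the libraries would give shares of about this size, so the counts are not read as a trend with stage. The 5 genes that rose most were HOXA9, HOXB9, GUCA2B, HOXA7 and GREB1. HOXA9 had 17.0, 37.1, 42.9 and 221 CPM at 4S, 7S, 10S and 13S (13.0-fold), HOXB9 22.7, 78.9, 125 and 262 CPM (11.6-fold), and HOXA7 148, 501, 592 and 1441 CPM (9.77-fold). In all other cells HOXA9 rose 3.93-fold, HOXB9 74.0-fold and HOXA7 13.9-fold. GUCA2B rose 10.4-fold in members, most of it between 4S and 7S, and was seen in 20 of 84, 40 of 48, 66 of 74 and 21 of 24 cells. GREB1 rose 7.30-fold, against 12.6-fold in all other cells.

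APOA1 fell most, at 1101, 306, 304 and 110 CPM, so that 13S had 0.100 times the 4S level. The next was CXCR4 at 343, 190, 134 and 46.0 CPM (0.134 times, against 0.888 times in all other cells). SOX17, which the rule used, followed at 0.229 times, FN1 at 0.269 times and GATA5 at 0.287 times. GATA5 had 465, 418, 261 and 134 CPM in members and 119, 80.5, 57.8 and 59.7 CPM in all other cells.

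**Figure D5:**
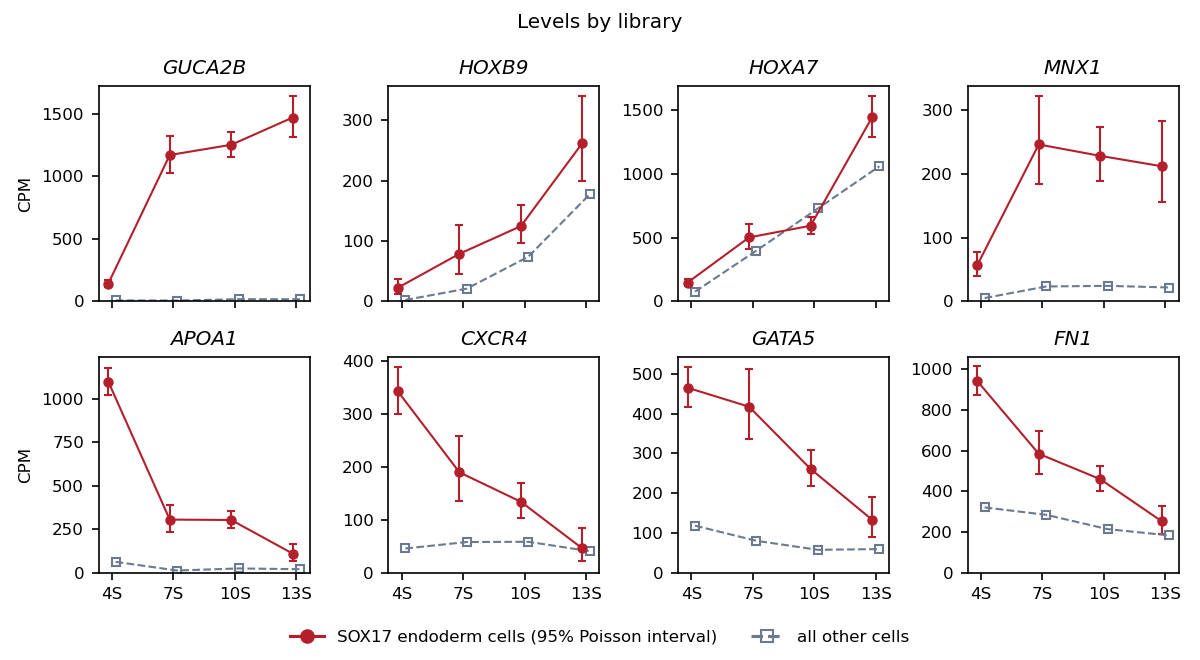
CPM at 4S, 7S, 10S and 13S in SOX17 endoderm cells (red, with 95% Poisson intervals) and in all other cells (grey, dashed) for 8 genes, each panel starting at 0. GUCA2B, HOXB9 and HOXA7 climb with stage in the members, APOA1, CXCR4, GATA5 and FN1 drop, and MNX1 is lowest at 4S with 56.7 CPM.

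Pairs of genes were then looked for in the same member, on thinned counts, as the mean over the 4 libraries. MNX1 and CDX2 were seen together in 11.3% of members, against 12.0% from the product of their single shares. FOXA2 and MNX1 met in 6.90% against 7.14%, CDX2 and HOXB9 in 11.8% against 11.6%, and APOA1 and MNX1 in 9.0% against 9.07%. APOA1 and TTR met in 17 members, 6.61% against 3.64%, above the product in 4 of 4 libraries by 2.97 ± 2.02 percentage points (SD). Without thinning this pair was above its product in 3 of 4 libraries, by 1.77 ± 1.48 percentage points. The authors reported a subcluster with MNX1 and HOXB1 within the SOX17 endoderm, which they placed in the pancreatic lineage. MNX1 and HOXB1 met in 5 members, 2.76% ± 1.96 against 1.46% ± 0.817 (SD, n = 4 libraries). The difference of 1.30 ± 1.62 percentage points was within the spread between libraries. Without thinning the pair was seen in 28 members, 13.6% against 8.56%, above the product in 4 of 4 libraries by 5.01 ± 0.939 percentage points, so this result depends on whether depth is made equal.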

How the data were processed

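The authors dissected, dissociated and sequenced the tissue by droplet-based 3′ RNA-seq, aligned the reads with Cell Ranger 4.0.0 to the chick build GRCg6a, used DropEst to count UMIs in introns as well as exons and, with Scanpy and Scrublet, removed doublets and cells of low counts or high mitochondrial share before deposit. The deposited values are whole-number UMI counts per gene and cell for 21328 genes, not normalised, so no further doublet caller was run. Of 27391 deposited cells, 2012 with fewer than 2500 UMIs, all of the 7S library, were left out. A total of 63 barcodes occurred in more than 1 library, of which 1 was a member's.

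Counts were summed per library and group and tested in R 4.3.3 with edgeR 4.0.16 (TMM, filterByExpr, glmQLFit, glmQLFTest, library as block, Benjamini-Hochberg over all genes tested, threshold 0.05), and with DESeq2 1.42.0 as an alternative. CPM are UMIs of a gene over all UMIs of the sum, scaled as usual. The genes of the rule, and MNX1 or CDX2 in their splits, were left out of the tests. Thinning drew 2500 UMIs per cell, and shares have exact 95% intervals. Intervals and floors cover counting error only. The paired sums of each library deviated together from the group means. The correlations were 0.112 to 0.191 (all other cells), 0.121 to 0.278 (notochord), 0.150 to 0.308 (surface ectoderm), 0.114 to 0.442 (MNX1) and 0.0304 to 0.187 (CDX2). The sums of a library share embryos, droplets and stage, and the parts of these cannot be told apart. Named genes were the 15 largest rises and 10 largest falls (8 and 5 within the members) past the threshold with at least 50 CPM in the higher group and the same direction in 4 of 4 libraries, by stage the 5 largest in each direction, and members of the gene lists. The members and lists were chosen with earlier results of these data known. Gene names come from the files. Results of some genes that meet these rules are not reported here.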

Additional observations from a re-analysis of the deposited data

Results flagged for a closer look

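Of 26 values tested for 1 library standing apart from the other 3, where chance alone flags about 1 in 20, 2 did so. For PDZK1IP1 the log2 ratio of CPM plus 1, SOX17 endoderm cells over all other cells, was 3.70 in the 4S library, against 4.29, 4.32 and 4.39 in 7S, 10S and 13S, a gap of 0.860 of the whole range. For RBP4A the same ratio was 6.71 in the 7S library, against 3.37, 2.86 and 3.46 in 4S, 10S and 13S, a gap of 0.843 of the range. All other cells of the 7S library had 0.824 CPM of RBP4A, the lowest of the 4 libraries, while the 7S members had 190 CPM.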

How the results depend on the processing

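The main limits are 1 library per stage, a rule that rests on sparse SOX17 counts, and 24 members at 13S. Leaving out 1 library at a time gave 521 to 716 genes higher and 684 to 885 lower against all other cells, 505 to 738 and 674 to 904 against notochord, 210 to 338 and 200 to 343 against surface ectoderm, 8 to 33 and 27 to 59 in the MNX1 split and 0 to 8 and 0 to 2 in the CDX2 split; the fewest calls came without 10S except in the counts of genes lower with MNX1 and in the CDX2 split. With no replicate block (library as the pairing) the counts were 465 higher and 355 lower against all other cells, 459 and 553 against notochord, 190 and 181 against surface ectoderm, 3 and 12 with MNX1 and 0 and 0 with CDX2. DESeq2 called 454 lower against all other cells, 477 and 601 against notochord, 208 and 187 against surface ectoderm, 6 and 16 with MNX1 and 1 higher and 0 lower with CDX2. The rule on thinned counts gave 429 and 657 against all other cells, 488 higher against notochord and 150 and 158 against surface ectoderm; status on thinned counts gave 18 higher with MNX1 and 3 and 3 with CDX2. No filter on low counts gave 85 lower with MNX1 and 16 and 2 with CDX2, and leaving out the TTR cells, chosen after seeing the data, 2 higher with CDX2.

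The share of members at 4S moved to 0.894% on thinned counts. At 7S it was 0.542% with at least 2 SOX17 UMIs, 0.525% thinned and 1.16% among cells with at least 5000 UMIs. It was 0.461% and 0.300% at 10S under the first 2 of these, and 0.103% under both at 13S. The MNX1 and HOXB1 pair exceeded its product by 5.01 percentage points without thinning. Some single genes changed sign. Apart from TTR, whose own counts chose the cells left out, none was past the threshold after the change. Leaving out 1 library at a time, the log2 fold change against all other cells ranged from −0.79 to 0.57 for GATA4 and from −0.26 to 2.77 for ALDH1A3 (each extreme without 4S and 10S), from −0.012 to 0.40 for HOXA7 and from −0.23 to 0.46 for HOXA9. It ranged from −0.57 to 0.052 for FOXA2 against notochord, from −0.014 to 0.38 for CDX2 against surface ectoderm and from −0.25 to 0.067 for FOXA2 with MNX1. On thinned counts HOXA7 was at −0.065 and HOXA9 at −0.31 against all other cells, CDX2 at −0.091 against surface ectoderm and at −0.067 with MNX1. With at least 2 SOX17 UMIs HOXA9 was at −0.30 and HOXA10 at −1.29, and without the TTR cells TTR was at −1.0. The cause of these changes was not tested.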
